A study of Mus musculus with 27 samples.

Results

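The cytosolic ribosomal protein genes encode the protein part of the ribosomes that translate messenger RNA in the cytosol. They were taken from the deposited table as the protein-coding mouse genes whose symbol starts with Rpl or Rps and a digit, together with Rplp0, Rplp1, Rplp2 and Rpsa, leaving out pseudogenes, the Rps6k kinases and Rps19bp1. This gave 85 genes of the 35604 listed, 52 of the large subunit and 33 of the small subunit, including paralogs that replace or resemble another member. Of the 85, 82 passed the filter on low values (1 TPM or more, that is transcripts per 1000000, in 3 libraries or more). Rpl3l and Rpl10l were listed at 0 in every library and Rpl39l averaged 0.329 TPM, so these 3 were not tested; in mice they are known from muscle (Rpl3l) and testis (Rpl10l and Rpl39l).

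A ribosome is built from a small subunit, which reads the messenger RNA, and a large subunit, which joins the amino acids. Most ribosomal protein genes start transcription at a C within a run of C and T, so their messenger RNAs begin with a 5′ terminal oligopyrimidine (TOP) tract, through which mTOR and LARP1 control their translation without need of a change in transcript level. Resting B lymphocytes are small cells with few ribosomes, and activation through CD40 and cytokine receptors is known to enlarge them and to start ribosome production.

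Polyadenylated RNA was sequenced from naive B cells of wild-type mouse spleen in 9 groups of 3 libraries. One group was uncultured. The other 8 were cultured for 6 h or 24 h with an antibody to CD40 (clone HM40-3, 1 µg/mL), which stands in for the CD40 ligand of helper T cells, either alone, with interleukin-4 (IL-4, 12.5 ng/mL), with interleukin-21 (IL-21, 50 ng/mL) or with both cytokines. No group was cultured without anti-CD40, so the comparisons with uncultured cells hold culture and anti-CD40 together, and the labels do not say whether libraries of a group came from separate mice or cultures, so that p-values measure the spread between these libraries, which may be technical.

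The starts of 6 members whose levels the results below turn on are shown here, to let the paralogs be set beside the genes they resemble. Each line runs from 30 bases before to 20 bases after the annotated start on the gene's own strand (RefSeq, build GRCm38.p6), in lower case, with runs of at least 5 C or T in capitals.
Rps27: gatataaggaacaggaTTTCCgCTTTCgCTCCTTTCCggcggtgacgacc
Rps27l: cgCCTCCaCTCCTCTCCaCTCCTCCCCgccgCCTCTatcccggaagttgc
Rpl22: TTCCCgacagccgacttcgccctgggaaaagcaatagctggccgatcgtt
Rpl22l1: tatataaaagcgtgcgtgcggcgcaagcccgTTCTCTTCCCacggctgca
Rpl27: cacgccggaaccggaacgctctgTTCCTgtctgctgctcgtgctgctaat
Rpl7l1: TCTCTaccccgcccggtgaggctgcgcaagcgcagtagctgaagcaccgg
These stretches lie at chr3:90213629-90213678 on the minus strand (Rps27), chr9:66946056-66946105 on the plus strand (Rps27l), chr4:152325696-152325745 on the plus strand (Rpl22), chr3:28805478-28805527 on the plus strand (Rpl22l1), chr11:101442215-101442264 on the plus strand (Rpl27) and chr17:46782637-46782686 on the minus strand (Rpl7l1). RefSeq gave a further start for Rps27l and for Rpl22, not shown. In Rps27, Rps27l and Rpl22l1 a run in capitals lies across the start or next to it, and in Rpl22 and Rpl7l1 the only such run is at the far upstream end of the stretch.

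Of the members, 65 had at least 1 promoter (250 bases before to 50 after a start) in the same RefSeq set. A run of at least 8 C or T within 20 bases of a start, on the gene's strand, was found in 30 of the 65 (46.2%), beside 18.3% of 16433 other protein-coding genes. The letters CCGGAAG, on either strand of the 300 bases, were found in 26 members (40%) and in 13.2% of the other genes, CTTTCC in 35 members (53.8%) and 29.2%, and TATAAA in 7 members (10.8%) and 14.3%. Read on the gene's strand, CTTTCC can lie inside a run of C and T, and the complement of CCGGAAG can share the end of one, so these counts overlap. These matches describe the letters in the window and were not set against binding data.

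The members were among the most abundant transcripts of these cells. The mean of the 9 group means had a median over the tested members of 1901 TPM, beside 8.18 TPM over the other tested genes, and 55 members lay above 1000 TPM. TPM is scaled by transcript length, and the members were short, with a median annotated length of 925.5 bases beside 3027 for the other tested protein-coding genes. Rps24, a small-subunit protein mutated in some patients with Diamond-Blackfan anaemia (a failure of red cell production caused by ribosomal protein mutations), was highest at 12540.0 TPM. Also among the most abundant were Rpl13a at 9900.2 TPM, the stalk protein Rplp1 at 8579 TPM, Rps12 at 6342 TPM and Rps21 at 5840.4 TPM.

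**Figure D1:**
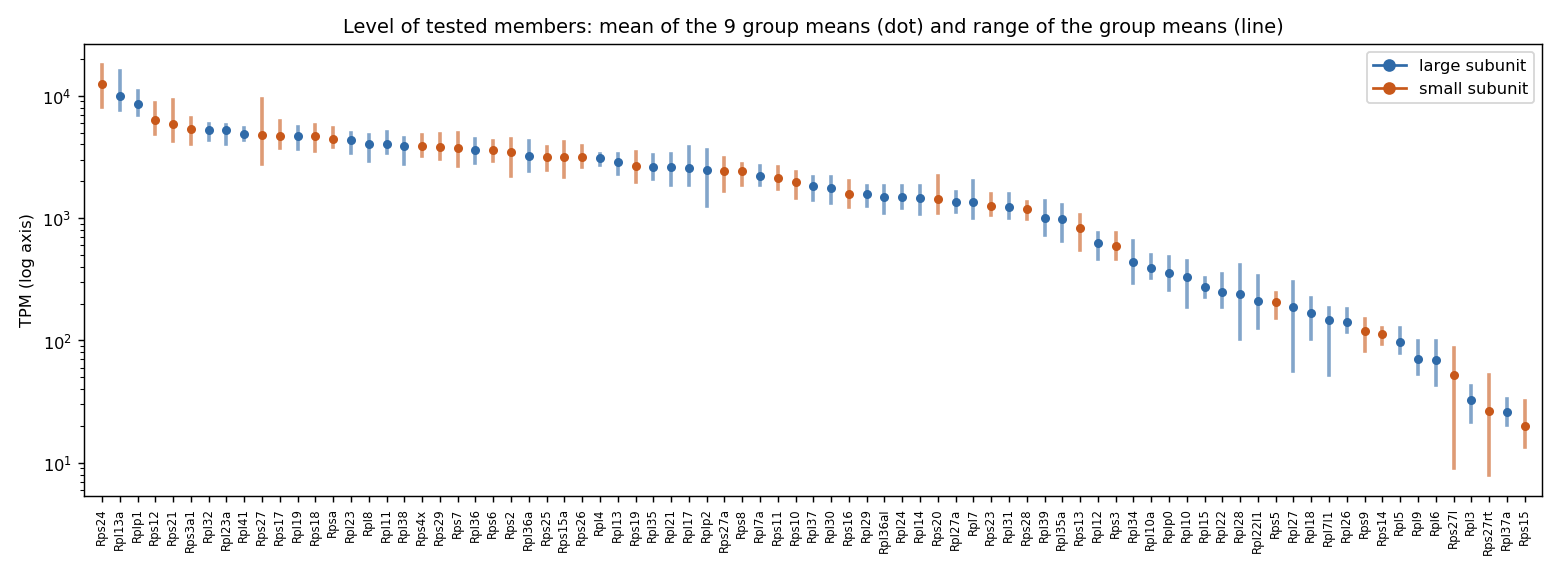
Level of 81 of the 82 tested members in TPM (log axis); the dot is the mean of the 9 group means, the line spans the lowest to the highest group mean, and colour gives the subunit. Levels run from 19.9 TPM (Rps15) to 12540 TPM (Rps24), and 8 members lie below 100 TPM.

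At the other end, 8 tested members averaged below 100 TPM: Rps15 at 19.9 TPM, Rpl37a at 26.0 TPM, Rps27rt at 26.4 TPM, Rpl3 at 32.9 TPM, Rps27l at 52.4 TPM, Rpl6 at 69.1 TPM, Rpl9 at 70.6 TPM and Rpl5 at 97.98 TPM. The highest member was 629-fold above the lowest, although Rps15, Rpl37a, Rpl3, Rpl6, Rpl9 and Rpl5 are core proteins present once in each ribosome. The table also listed 295 ribosomal protein pseudogenes, which held 2.13% to 4.35% of the listed TPM per library, and listed TPM summed to 766384 to 825365, short of the total of 1000000 that defines TPM. How reads were divided between a member, its pseudogenes and rows not analysed here was not tested, so levels are compared below within a gene across libraries, not between genes. Rps27rt (ribosomal protein S27, retrogene), a single-exon copy of Rps27, ranged from 0 to 83.5 TPM between libraries of the same group, and no statement below rests on it.

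The depth of the libraries is unknown, since TPM keeps no read number. Markers of B cells summed to 454 to 5064 TPM per library, while those of T cells stayed at or below 5.97 TPM, NK cells at or below 0.962 TPM, neutrophils at or below 0.368 TPM and dendritic cells at or below 5.9 TPM. In the uncultured cells 4 markers of erythroid cells and platelets summed to 674 to 1290 TPM and 5 markers of macrophages and monocytes to 24.5 to 35.6 TPM, beside 6.98 to 150.5 TPM and 0.55 to 9.30 TPM in the 24 cultured libraries; their part in the differences from uncultured cells was not tested. A pair of libraries, picked after seeing the data, had a low share of mitochondrially encoded transcripts within their groups. It was 5.50% in naive replicate 1 (group mates 12.7% and 13.5%) and 7.89% in replicate 1 of anti-CD40 with IL-4 at 24 h (11.6% and 11.0%). They were not alone in this. At 6 h, replicate 3 was at 6.91% with anti-CD40 plus IL-4 (10.2% and 10.6%) and at 7.27% with anti-CD40 and IL-21 (10.9% and 10.2%). These libraries of 6 h are not part of the pair named below. In both libraries of the pair, the same 22 members lay above and the same 38 below both of their group mates. The first set had a median level of 1095 TPM and the second 2902 TPM. No such count was made over all genes. Results are given without the pair where they differ. Leaving the pair out changes the estimated spread of every gene, and the share of all genes called was then not recorded. Those counts therefore cannot be read as particular to the members.

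Together the members held 18.3% to 29.3% of the listed TPM, and the group means of their share were lowest in cells given IL-21 for 24 h. In uncultured cells the members summed to 27.9%, 29.3% and 29.1% of the listed TPM. With anti-CD40 alone the shares were 25.9%, 28.1% and 27.5% at 6 h and 26.8%, 29.2% and 24.9% at 24 h, overlapping the uncultured range at both times. With anti-CD40 and IL-21 they were 24.0%, 26.1% and 24.8% at 6 h and 20.9%, 18.3% and 23.9% at 24 h. At 24 h all 3 of these libraries lay below all 3 with anti-CD40 alone, while at 6 h the groups overlapped in replicate 2 with IL-21 and replicate 1 without. Set against the library of the same replicate number, which at 6 h was taken to pair the libraries, the 3 with IL-21 at 6 h differed by -1.94, -1.99 and -2.72 percentage points, all lower; no test was made on these 3 pairs.

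With anti-CD40 plus IL-4 the shares were 24.5%, 25.8% and 28.2% at 6 h and 23.0%, 29.1% and 29.2% at 24 h, where the low value is the library of low mitochondrial share. With both cytokines they were 23.6%, 24.5% and 24.8% at 6 h and 22.5%, 22.7% and 21.9% at 24 h, the latter all below the anti-CD40 plus IL-4 libraries. In group means the difference made by IL-21 at 24 h was -5.94 percentage points with anti-CD40 alone (21.0 ± 2.77 against 26.96 ± 2.15, SD, n = 3 each) and -4.75 points with anti-CD40 plus IL-4 (22.4 ± 0.377 against 27.1 ± 3.55). At 6 h it was -2.22 points (24.9 ± 1.07 against 27.2 ± 1.12) and -1.85 points (24.3 ± 0.601 against 26.2 ± 1.88). By replicate number, the libraries with both cytokines at 6 h differed from those with anti-CD40 plus IL-4 by -0.847, -1.30 and -3.39 points, again all lower. IL-4 with anti-CD40 made a difference of -1.01 points at 6 h and 0.153 points at 24 h, both with overlapping groups.

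**Figure D2:**
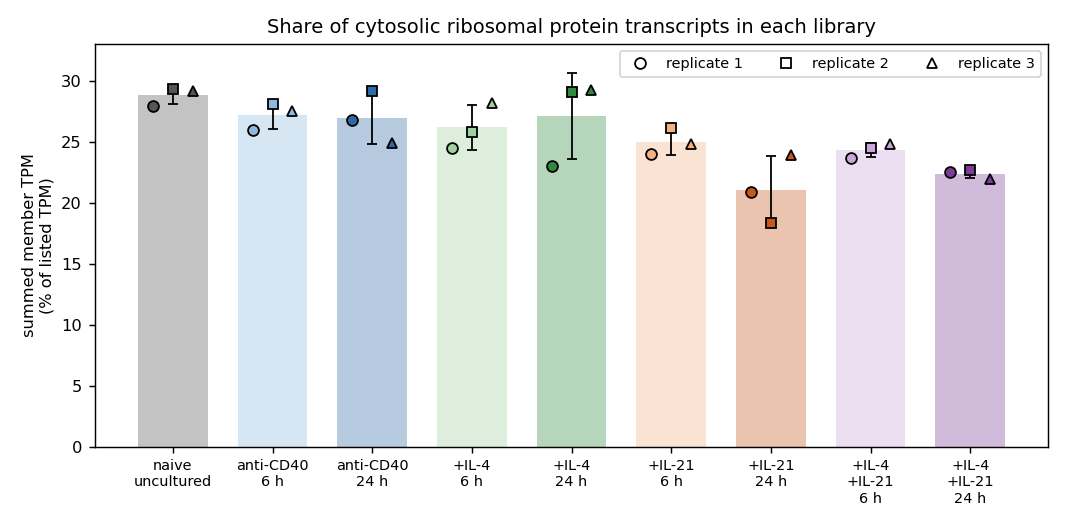
Summed member TPM as a percentage of the listed TPM in each of the 27 libraries; bars and error bars are the mean and SD of 3 libraries, and the marker shape gives the replicate number. The 6 libraries with IL-21 at 24 h lie between 18.3% and 23.9%, and the 3 uncultured libraries between 27.9% and 29.3%.

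From low to high, the group means ran from anti-CD40 and IL-21 at 24 h, both cytokines at 24 h, both cytokines at 6 h, anti-CD40 and IL-21 at 6 h, anti-CD40 plus IL-4 at 6 h, anti-CD40 at 24 h, anti-CD40 plus IL-4 at 24 h and anti-CD40 at 6 h up to uncultured cells. Neighbours in this order overlapped in range except both cytokines at 24 h (up to 22.7%) and at 6 h (from 23.6%). At 24 h the mean mitochondrially encoded share was also lower with IL-21. It was 6.56% to 8.14% with IL-21 and 6.97% to 8.04% with both cytokines, beside 8.51% to 11.8% with anti-CD40 alone and 7.89% to 11.6% with anti-CD40 plus IL-4. The last of these ranges overlaps that of both cytokines. The shares did not always move together: replicate 3 of anti-CD40 plus IL-4 at 6 h had its group's highest member share (28.2%) and lowest mitochondrial share (6.91%). The part of mitochondrial transcripts in the share was not tested. Left out of the total together with pseudogene transcripts, mitochondrial transcripts left the difference made by IL-21 at 24 h at -9.50 points without IL-4 and -8.40 points with it. A share in bulk RNA cannot tell fewer member transcripts per cell from more of other transcripts, nor fewer cells of a type from less RNA per cell.

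The first set of comparisons asked how the members moved when resting cells were cultured with anti-CD40. At 6 h most members stayed near their uncultured level while a few changed strongly in either direction: on the log2(TPM + 1) scale, 10 of 82 were higher and 6 lower by limma's moderated test at an adjusted p below 0.05, beside 16.6% of all 12147 tested genes higher and 13.3% lower. The members' median change was 0.02, beside 0.06 over all genes. Without naive replicate 3 the 16 calls became 10, and without anti-CD40 6 h replicate 1 they became 9. Without the pair of libraries of low mitochondrial share, 14 were higher and 8 lower. After rescaling the libraries by the median of ratios, 4 members were higher and 7 lower, beside 16% and 19.4% of all genes, with a median of -0.12, and the all-gene median moved to -0.03. B cell markers summed to 3365 to 5064 TPM in uncultured cells and 1492 to 2802 TPM with anti-CD40 at 6 h. Dendritic cell markers summed to 3.63 to 4.74 and 0.165 to 0.501 TPM. The part of these markers was not tested.

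Rps27l, a paralog of Rps27 known in human cells as a target of p53, showed the largest rise. It was listed at 7.47, 8.63 and 11.2 TPM in the uncultured libraries and at 72.8, 71.0 and 65.1 TPM with anti-CD40 at 6 h, with no overlap (log2 change 2.82 ± 0.28, adjusted p = 6.76e-08). For log2 changes, here and below, ± gives the standard error of the change from limma, not an SD between libraries. Rpl27, a large-subunit protein, was at 67.1, 49.9 and 50.5 TPM in uncultured cells and at 211, 175 and 160.1 TPM at 6 h (1.69 ± 0.16, adjusted p = 4.04e-08). Rpl7l1, a paralog of Rpl7, was at 64.8, 42.1 and 50.0 TPM and then 147, 124 and 122 TPM (1.33 ± 0.15, adjusted p = 3.34e-07). All 3 rises were called under every alternative tried. The gene bodies are at chr9:66946086-66949516 (Rps27l), chr11:101442298-101445529 (Rpl27) and chr17:46773907-46782672 (Rpl7l1), as the GENCODE vM21 annotation of GRCm38 has them.

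In the same comparison Rpl22l1, the paralog of Rpl22, was at 304, 311 and 331 TPM in uncultured cells and at 134, 156 and 153 TPM at 6 h (log2 change -1.09 ± 0.30, adjusted p = 0.00749). Rpl13a, one of the most abundant members, was at 15994, 16378 and 15768 TPM and then at 9554, 11177 and 9825 TPM (-0.66 ± 0.15, adjusted p = 0.0021). Neither gene's groups overlapped, and both falls were called under every alternative. A further 3 abundant small-subunit genes were lower with a less stable call. Rps27 was at 7732, 9776 and 10687 TPM and then 4329.6, 6331 and 5996 TPM (-0.77 ± 0.24, adjusted p = 0.0181), a call lost after rescaling and without naive replicate 2, naive replicate 3 or anti-CD40 6 h replicate 1. Rps20 (-0.67 ± 0.19, adjusted p = 0.00765) lost its call without anti-CD40 6 h replicate 1, and Rps21 (-0.59 ± 0.16, adjusted p = 0.00744) after rescaling. Among the rises, Rps2, a small-subunit protein near the messenger RNA entry channel, was at 2841, 1968 and 1776 TPM and then 4059, 3657 and 4291 TPM (0.89 ± 0.26, adjusted p = 0.0111), a call lost without naive replicate 3.

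At 24 h with anti-CD40 alone, 8 members were higher and 8 lower than in uncultured cells, beside 18.9% of all genes higher and 7.85% lower. The members' median change was -0.06 and that of all genes 0.25. After rescaling, which set the all-gene median to 0.02, 3 members were higher and 17 lower, beside 13.4% and 16.2% of all genes, with a median of -0.38. The 16 calls became 9 without naive replicate 2, and 10 without anti-CD40 24 h replicate 2 or replicate 3. Without the pair of libraries of low mitochondrial share, 14 were higher and 12 lower.

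Rpl10, an X-linked gene whose protein joins the large subunit in a late step of its maturation, was at 228, 165 and 170.3 TPM in uncultured cells, 313, 253 and 249.6 TPM at 6 h and 430.1, 437 and 461 TPM at 24 h. The 24 h libraries lay above all others of this comparison (log2 change 1.25 ± 0.16, adjusted p = 4.85e-06, called under every alternative), and 24 h was also above 6 h (0.71 ± 0.16, adjusted p = 0.00266). Rpl7l1 stayed high at 118, 99.5 and 128 TPM (1.14 ± 0.15, adjusted p = 5.86e-06), again called under every alternative. Rplp2, a protein of the stalk through which the large subunit engages translation factors, was at 4906, 3228 and 2696 TPM in uncultured cells and at 1700.0, 1483 and 2062 TPM at 24 h (-1.01 ± 0.25, adjusted p = 0.0046). Its partner Rplp0 was at 495, 155 and 123 TPM and then at 443, 460.1 and 529 TPM (1.17 ± 0.34, adjusted p = 0.0144); naive replicate 1 lay within the 24 h range, and the call was lost without naive replicate 2, naive replicate 3 or anti-CD40 24 h replicate 3. Rplp1, the third stalk protein, was at 7976, 9968 and 9586 TPM and 10761, 11700.0 and 8680.4 TPM, and its change of 0.17 ± 0.16 was not called on this scale.

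Between 6 h and 24 h of anti-CD40 alone, 1 member was higher and 6 lower, beside 16.1% and 8.17% of all genes. Of the early rises, 2 were lower again. Rps27l was at 21.8, 31.6 and 11.7 TPM at 24 h (log2 change from 6 h -1.74 ± 0.28, adjusted p = 1.15e-04) and Rpl27 at 94.9, 87.9 and 83.0 TPM (-1.02 ± 0.16, adjusted p = 9.69e-05), both still above the uncultured libraries. Rpl36, a large-subunit protein, was at 4205, 4140.3 and 4246 TPM at 6 h and 3412, 3149.7 and 3070.1 TPM at 24 h (-0.39 ± 0.10, adjusted p = 0.00773). These 3 falls and the rise of Rpl10 were called under every alternative. After rescaling 1 member was higher and 12 lower, beside 16.2% and 14.6% of all genes. With the pair of libraries of low mitochondrial share left out, which are not in this comparison, 6 were higher and 14 lower. B cell markers summed to 1492 to 2802 TPM at 6 h and 3826 to 4358 TPM at 24 h, and their part was not tested.

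**Figure D3:**
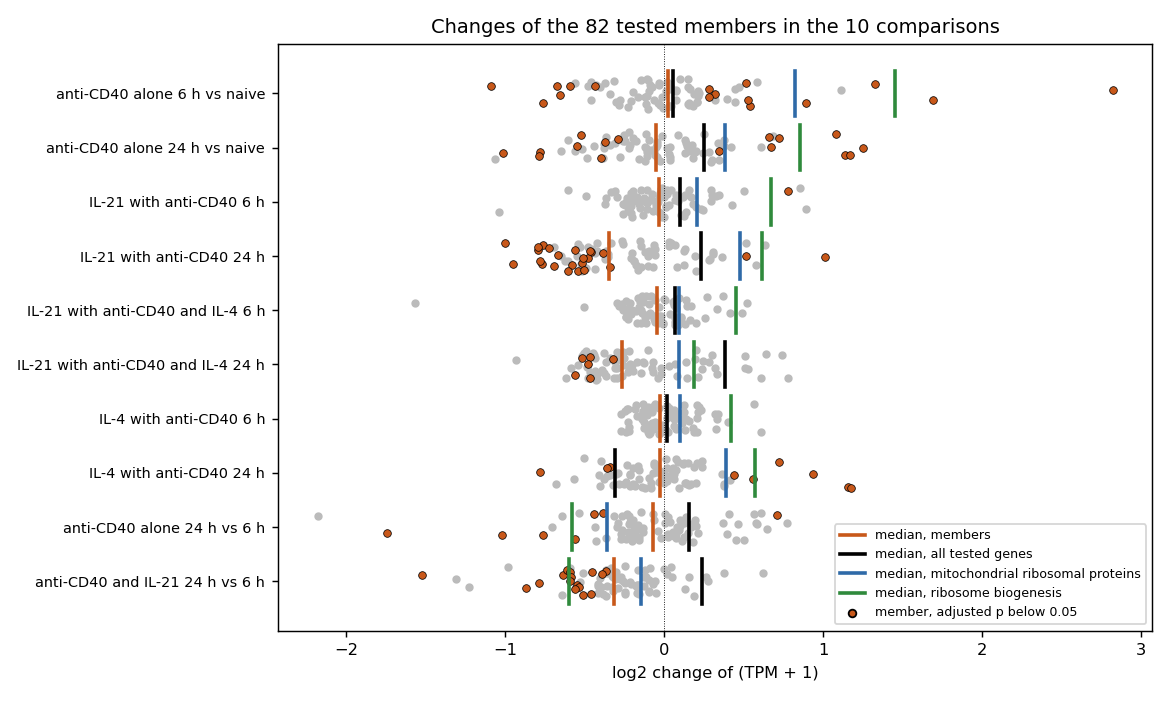
Log2 change of (TPM + 1) of each of the 82 tested members in the 10 comparisons; filled orange points have an adjusted p below 0.05, and vertical lines mark the medians of the members, of all tested genes, of the mitochondrial ribosomal proteins and of the ribosome biogenesis list. The members' median is -0.35 for IL-21 with anti-CD40 at 24 h, where the other 3 medians lie above 0.

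The next comparisons asked what IL-21 added to anti-CD40. At 24 h more members were called lower than higher: 22 of 82 were lower and 2 higher, beside 6.33% of all genes lower and 17.8% higher. The members' median change was -0.35 beside 0.23 over all genes, and 20 of the 82 had a change above 0. Members share any shift of a whole library, so their calls are not independent, and no test of the set was made. The lower members were 12 of 33 of the small subunit (median -0.37) and 10 of 49 of the large subunit (median -0.27). After rescaling 14 were lower and 1 higher, beside 10.5% and 13.1% of all genes, with a median of -0.63. The 24 calls became 15 without anti-CD40 24 h replicate 1, 8 without anti-CD40 24 h replicate 2 and 6 without anti-CD40 and IL-21 24 h replicate 2, the library with the lowest share. Markers of cell types moved in the same comparison, and their part was not tested: the 7 of B cells summed to 3826 to 4358 TPM without and 1851 to 2585 TPM with IL-21, the 6 of T cells to 1.13 to 1.55 and 1.93 to 4.95 TPM, and the 4 of dendritic cells to 0.157 to 0.965 and 3.23 to 5.9 TPM, each without overlap. Without the pair of libraries of low mitochondrial share, neither of which is in this comparison but both of which enter the shared estimate of the spread, 37 were lower and 3 higher. The share of all genes called was not recorded for this setting.

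Rps19, the small-subunit protein most often mutated in Diamond-Blackfan anaemia, was at 3491, 3819.8 and 3035 TPM with anti-CD40 and at 2043, 1701 and 2225 TPM with IL-21 added, with no overlap (log2 change -0.80 ± 0.14, adjusted p = 2.34e-04). Rps27 was at 5284, 6706 and 4418 TPM without and 2616, 2069 and 3581 TPM with IL-21 (-1.0 ± 0.24, adjusted p = 0.00382). Rps24 was at 13180.0, 15447 and 12378 TPM and 7473, 6267 and 10620.0 TPM (-0.78 ± 0.20, adjusted p = 0.0064). Rps20 was at 1710.0, 2052 and 1753 TPM and 1037, 898 and 1339 TPM (-0.77 ± 0.19, adjusted p = 0.00412). Each of these 4 genes was lower in all 3 IL-21 libraries than in all 3 without, and each was called under every alternative.

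Further members called lower included the laminin receptor homolog Rpsa (-0.38 ± 0.11, adjusted p = 0.0163), the stalk protein Rplp1 (-0.58 ± 0.16, adjusted p = 0.012) and Rps12 (-0.73 ± 0.19, adjusted p = 0.00736). Rps12 lost its call without anti-CD40 and IL-21 24 h replicate 2. Rplp1 lost its call without that library, without anti-CD40 24 h replicate 2 and after rescaling, and Rpsa under these and without anti-CD40 24 h replicate 1. Against the direction of the rest, Rpl27 was at 94.9, 87.9 and 83.0 TPM with anti-CD40 and at 181, 201 and 158 TPM with IL-21 (1.01 ± 0.16, adjusted p = 9.63e-05, called under every alternative). Rpl7l1 was at 118, 99.5 and 128 TPM and 148, 179.5 and 166 TPM (0.51 ± 0.15, adjusted p = 0.0145), a call lost after rescaling and without anti-CD40 24 h replicate 2 or anti-CD40 and IL-21 24 h replicate 2.

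In the presence of IL-4, IL-21 at 24 h left 6 members lower and 0 higher, beside 2.39% of all genes lower and 21.8% higher (32 members had an unadjusted p below 0.05 in either direction). The members' median change was -0.26 and that of all genes 0.38. The all-gene median moved by more here than in any other comparison when the libraries were rescaled, to -0.01, and then 41 members were lower and 0 higher, beside 11.5% and 10% of all genes, with a median of -0.84. The number of calls also changed with several single libraries. Without anti-CD40 plus IL-4 24 h replicate 1, the library of low mitochondrial share, 51 members were called. Only 1 was called without replicate 3 of that group, 2 without its replicate 2 and 3 without replicate 2 with both cytokines. The share of all genes called was not recorded for these settings. Without the pair of low mitochondrial share 41 were lower and 13 higher, with no share of all genes recorded beside them. In this comparison the B cell markers overlapped (1944 to 2828 and 2245 to 2307 TPM), as did those of dendritic cells (0.0207 to 0.531 and 0.505 to 0.922 TPM), while T cell markers summed to 0.314 to 0.845 TPM without and 1.25 to 3.64 TPM with IL-21; their part was not tested. Rpsa was at 4609, 5750.1 and 6069 TPM with anti-CD40 plus IL-4 and at 4197, 3701 and 3808 TPM with IL-21 added (-0.48 ± 0.11, adjusted p = 0.00509), the only named member of this comparison called under every alternative. Rps19 was at 2149, 3134 and 3259 TPM and 1979, 1968 and 1918 TPM (-0.52 ± 0.14, adjusted p = 0.0125), a call lost without replicate 2 or 3 of the IL-4 group.

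Whether the effect of IL-21 differed with time or with IL-4 was tested directly. Its change from 6 h to 24 h was called for 0 of 82 members without IL-4 (4.44% of all genes, and 6 members at an unadjusted p below 0.05) and for 0 with it (4.24% of all genes, 6 members unadjusted), by limma. Its difference with and without IL-4 was called for 0 members at 6 h (0.412% of all genes, 0 members unadjusted) and for 1 member at 24 h (5.8% of all genes, 4 members unadjusted). That member was Rpl27, which was called higher with IL-21 where IL-4 was absent. With IL-4 present it was at 252, 190.4 and 163 TPM with anti-CD40 plus IL-4 and at 212, 219 and 179 TPM with both cytokines, a change of 0.03 ± 0.16 that was not called. The difference between the IL-21 effects was -0.98 ± 0.23, adjusted p = 0.0125 by limma. None of these tests of a difference was repeated under the alternatives.

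At 6 h IL-21 changed few members. With anti-CD40, 1 was higher and 0 lower, beside 7.43% and 4.68% of all genes, and 0 were called in the presence of IL-4, beside 1.25% higher and 1.28% lower (limma; 9 members with anti-CD40 and 3 with IL-4 present had an unadjusted p below 0.05). Same-numbered libraries deviated together at 6 h, and when blocked by replicate number 4 members were called without IL-4 and 1 in its presence. The called member was Rpl6, at 38.9, 66.3 and 63.3 TPM with anti-CD40 and 62.6, 117 and 115 TPM with IL-21 (0.78 ± 0.25, adjusted p = 0.0459); the groups overlapped, and the call was lost in 4 of 6 comparisons that left out 1 library (anti-CD40 6 h replicates 1 and 3 and anti-CD40 and IL-21 6 h replicates 2 and 3), after rescaling and without a variance trend. Without the pair of low mitochondrial share 3 members were higher and 3 lower with anti-CD40, and 1 was higher with IL-4 present. B cell markers summed to 1492 to 2802 TPM with anti-CD40 at 6 h and 454 to 809 TPM with IL-21 added. T cell markers summed to 1.35 to 3.39 and 4.78 to 5.97 TPM. With IL-4 present, B cell markers were at 1335 to 2317 and 680 to 1193 TPM, and T cell markers at 1.17 to 1.68 and 2.28 to 4.29 TPM. The part of these markers was not tested.

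IL-4 with anti-CD40 changed no member by this test at 6 h (0 higher and 0 lower, beside 1.65% and 2.4% of all genes, with 3 members at an unadjusted p below 0.05 by limma and 0 called when blocked by replicate number). At 24 h 6 members were higher and 3 lower, beside 8.28% and 23.1% of all genes. The members' median change was -0.03 and that of all genes -0.31; rescaling moved these to 0.45 and 0.00, with 10 members higher and 0 lower, beside 19% and 16.2% of all genes. The members' median thus lay above that of all genes on both scalings, while its own sign was not the same. The 9 calls became 28 without anti-CD40 plus IL-4 24 h replicate 1, and 4 or 5 without anti-CD40 24 h replicate 1 or 3 or without replicate 2 or 3 of the IL-4 group. Without the pair of low mitochondrial share 16 were higher and 18 lower. B cell markers, at 3826 to 4358 TPM without IL-4 and 1944 to 2828 TPM with it, moved in this comparison too, and their part was not tested.

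The rises with IL-4 were led by genes that anti-CD40 had raised at 6 h. Rps27l was at 21.8, 31.6 and 11.7 TPM with anti-CD40 at 24 h and at 29.9, 57.0 and 59.4 TPM with IL-4 added (1.17 ± 0.28, adjusted p = 0.00336); the libraries overlapped. Rpl27 was at 94.9, 87.9 and 83.0 TPM and 252, 190.4 and 163 TPM, with no overlap (1.16 ± 0.16, adjusted p = 1.70e-05). Rpl35a, another protein mutated in Diamond-Blackfan anaemia, was at 565, 748 and 642 TPM and 863, 1359 and 1615 TPM, also apart (0.93 ± 0.21, adjusted p = 0.00151). These 3 were called under every alternative. Rpl36al, the autosomal paralog of the X-linked Rpl36a, was at 1072, 1280.2 and 917 TPM and 1257, 2038 and 2205 TPM (0.72 ± 0.19, adjusted p = 0.00634), a call lost without replicate 3 of the IL-4 group.

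In cells with anti-CD40 and IL-21, 0 members were higher and 16 lower at 24 h than at 6 h, beside 26.2% and 9.3% of all genes. The members' median change was -0.32 and that of all genes 0.24, and after rescaling 33 were lower and 0 higher, beside 18.2% and 21.3% of all genes, with a median of -0.64. The 16 calls became 10 without anti-CD40 and IL-21 24 h replicate 2 and 26 without replicate 3. With the pair of low mitochondrial share left out, neither of which is in this comparison, 28 were lower and 1 higher. B cell markers summed to 454 to 809 TPM at 6 h and 1851 to 2585 TPM at 24 h there, and dendritic cell markers to 0.519 to 0.931 and 3.23 to 5.9 TPM; their part was not tested. Rps27l was at 94.0, 90.9 and 73.1 TPM at 6 h and 24.2, 24.0 and 42.3 TPM at 24 h (-1.52 ± 0.28, adjusted p = 2.29e-04). Rpl36 was at 4609, 4411 and 4186 TPM and 3095, 2605 and 2807 TPM (-0.64 ± 0.10, adjusted p = 4.13e-05). Both falls were called under every alternative, and neither gene's groups overlapped.

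To see which members moved away from the rest, every gene's TPM + 1 was also divided by the summed member TPM of its library. The members make up this sum, so their changes are held around it, while other genes can shift as a whole. The shares of all genes given in brackets are therefore not a like background for the members. On this relative scale, 13 members were higher and 5 lower at 6 h of anti-CD40 than in uncultured cells (14.7% and 9% of all genes), and 16 and 5 at 24 h (16.9% and 5.12%). Between 24 h and 6 h of anti-CD40, 4 were higher and 5 lower (10.4% and 5.23%), and with IL-21 4 and 6 (32.3% and 3.83%). The 21 relative calls at 24 h of anti-CD40 became 12 without naive replicate 2, anti-CD40 24 h replicate 1 or replicate 3 and 11 without naive replicate 3. The 9 between 24 h and 6 h became 5 without anti-CD40 6 h replicate 3 or 24 h replicate 1. The 10 with IL-21 became 4 and 6 without replicates 2 and 3 of 6 h, and 6 and 3 without replicates 1 and 2 of 24 h. IL-21 left 9 members higher and 6 lower at 24 h with anti-CD40 (35.3% and 2.55%) and 6 higher and 0 lower with IL-4 present (37% and 0.906%). At 6 h IL-21 left 2 higher and 1 lower (7.16% and 2.43%), or 0 and 0 with IL-4 present (0.939% and 0.568%, with 4 members at an unadjusted p below 0.05 by limma); the 3 calls without IL-4 became 5 with the replicate block, 1 without any one of the anti-CD40 libraries and 0 without replicate 2 or 3 with IL-21. IL-4 left 0 and 0 at 6 h (1.21% and 1.19%, 3 members unadjusted, and 0 by the replicate block) and 6 higher and 2 lower at 24 h (6.59% and 14.3%), 30 calls in all without anti-CD40 plus IL-4 24 h replicate 1. The large shares of all genes above the members' sum with IL-21 at 24 h stand beside a lower value of that sum.

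Most members lay close to the sum of the set. Relative to the sum, 65 of 82 stayed within 0.5 of 0 on the log2 scale for IL-21 with anti-CD40 at 24 h and 2 lay beyond 1. In that comparison Rps27 was called lower relative to the sum by limma (-0.59 ± 0.15, adjusted p = 0.00401), as was Rps19 (-0.38 ± 0.08, adjusted p = 0.00129). Called higher were Rpl27 (1.42 ± 0.24, adjusted p = 8.57e-05), Rpl7l1 (0.93 ± 0.21, adjusted p = 0.00153), Rps27l (0.93 ± 0.23, adjusted p = 0.00349) and Rpl35a (0.72 ± 0.14, adjusted p = 5.85e-04). These 6 relative calls held under every alternative. The 15 relative calls of this comparison became 7 without anti-CD40 24 h replicate 2, 8 and 9 without replicates 1 and 2 with IL-21 and 23 without replicate 3 with IL-21. With IL-4 present, the 6 relative calls became 32 without anti-CD40 plus IL-4 24 h replicate 1 and 0 or 1 without any other library of the comparison, so none of them is named. The relative calls in either direction, without the pair of low mitochondrial share, became 7 and 32 for IL-21 with anti-CD40 at 6 h and 24 h, 34 with IL-4 present at 24 h, 35 for IL-4 at 24 h, 20 between 24 h and 6 h of anti-CD40 and 16 with IL-21. Against uncultured cells, 17 members were then higher and 8 lower at 6 h of anti-CD40, and 22 and 7 at 24 h.

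**Figure D4:**
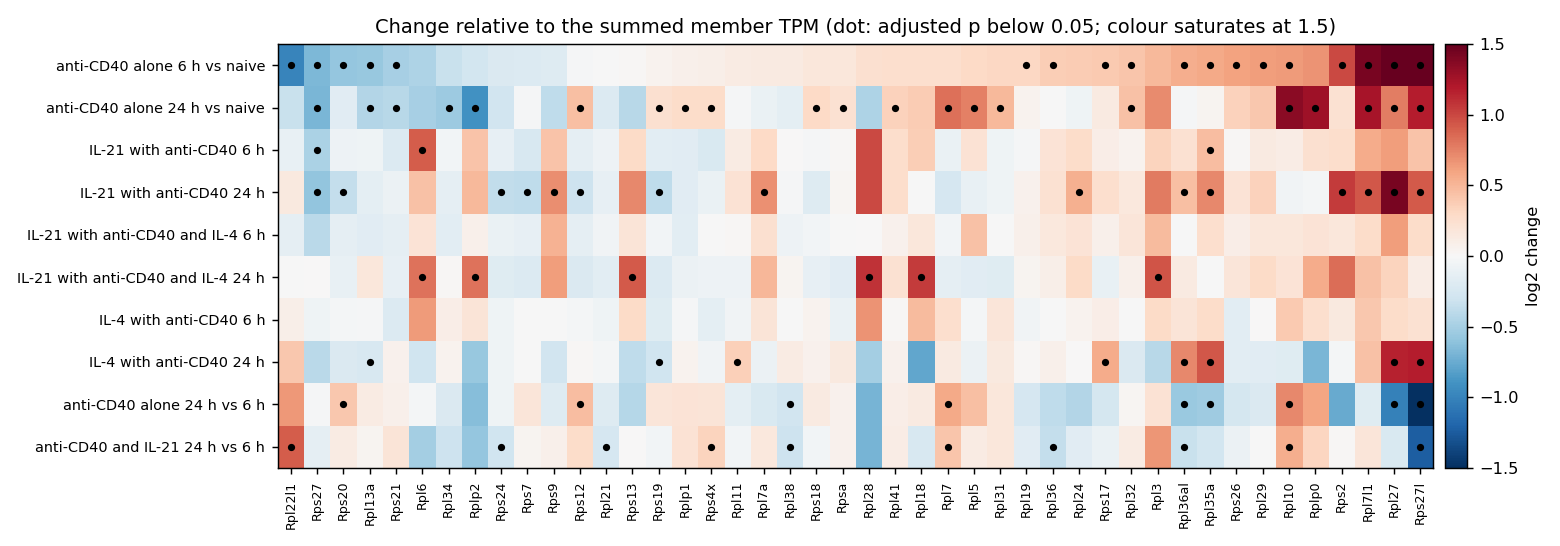
Log2 change relative to the summed member TPM for the 44 members called in at least 1 of the 10 comparisons on this scale; a dot marks an adjusted p below 0.05, and colour saturates at 1.5. Rps27l, Rpl27 and Rpl7l1 are red at both times of anti-CD40, and no dot falls in the rows of IL-21 with anti-CD40 plus IL-4 at 6 h and of IL-4 with anti-CD40 at 6 h.

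Members that are paralogs of each other differed in pattern. Rps27l was listed at 0.0883 to 0.105 TPM per 100 TPM of Rps27 in uncultured cells, at 1.09 to 1.68 with anti-CD40 at 6 h, at 2.05 to 3.00 with IL-21 added at 6 h, and at 0.264 to 0.471 with anti-CD40 and 0.925 to 1.18 with IL-21 at 24 h. Both sides of the ratio contributed: Rps27l rose on stimulation and Rps27 fell. Rpl22l1 was at 127 to 151 TPM per 100 TPM of Rpl22 in uncultured cells, at 39.7 to 77.5 in the 12 libraries of 6 h and at 62.5 to 173 in the 12 of 24 h, so that every uncultured library exceeded every library of 6 h. Rpl22, an RNA-binding ribosomal protein that mice need for the development of alpha-beta T cells, was itself at 201 to 261 TPM in uncultured cells and 188 to 297 TPM at 6 h. With anti-CD40 and IL-21, Rpl22l1 was at 99.0, 159 and 123 TPM at 6 h and 152, 159.7 and 293 TPM at 24 h, and rose relative to the sum (0.91 ± 0.23, adjusted p = 0.00392, called under every alternative).

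**Figure D5:**
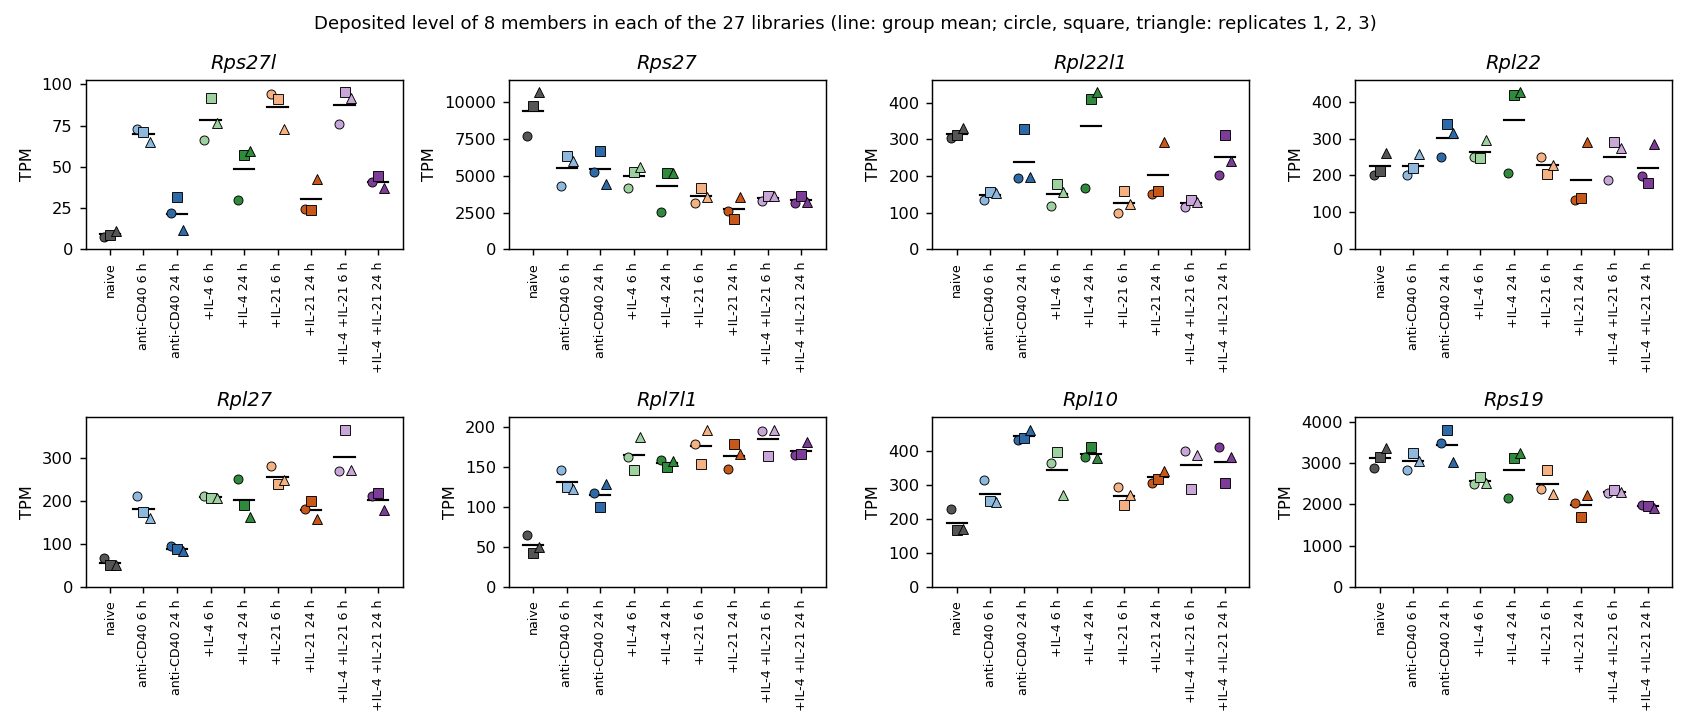
Deposited TPM of 8 members in each of the 27 libraries, with a line at the group mean and marker shapes for replicates 1 to 3; each panel has its own axis from 0. Rps27l is lowest in the 3 uncultured libraries (7.47 to 11.2 TPM) and Rps27 highest there (7732 to 10687 TPM).

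Rpl7l1 was at 4.03 to 6.84 TPM per 100 TPM of Rpl7 in uncultured cells, 8.62 to 15.9 with anti-CD40 at 6 h and 17.1 to 18 with IL-21 added. Rpl36al was at 31.7 to 39.9 TPM per 100 TPM of Rpl36a in uncultured cells, 42.8 to 51.4 with anti-CD40 at 6 h and 26.3 to 31.0 at 24 h, and at 38.6 to 48.3 at 24 h with IL-4. These ratios are descriptions of the libraries with no test of their own, and reads shared between close copies could move either side. Rps27l, Rpl7l1, Rpl22l1 and Rpl36al each have a sequence of their own in the annotation. Rpl22l1 and Rpl7l1 overlap a gene on the opposite strand (Gm33051 and Gm26904), and Rpl36al overlaps a protein-coding gene on its own strand (Gm49383). Whether the counting used strand is not given in the sources used here, and the part of these overlaps was not tested.

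Other members of known role were called rarely or not at all. Rps6, the small-subunit protein phosphorylated downstream of mTOR, ranged over 3553 to 3965 TPM in uncultured cells and 2639.7 to 5378 TPM in the 24 cultured libraries and was called in none of the 10 comparisons on either scale. The same held for Rps3, at the messenger RNA entry, for Rpl23, for Rps29 and for Rps27a, which is made as a fusion with ubiquitin. Rpl11, which with Rpl5 carries the 5S RNA and can bind Mdm2, ranged over 2606 to 6276 TPM over all libraries and was called once, higher relative to the sum with IL-4 at 24 h (0.36 ± 0.10, adjusted p = 0.00952, lost without replicate 3 of the IL-4 group and without a variance trend). Rpl5 was at 70.7, 76.0 and 91.7 TPM in uncultured cells and 110.2, 141 and 126 TPM with anti-CD40 at 24 h (0.76 ± 0.20, adjusted p = 0.00999 relative to the sum, lost without anti-CD40 24 h replicate 3). That a member was not called does not show that its level was the same.

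The balance of the subunits was described from sums, with no test. The summed TPM of large-subunit members was 1.00 to 1.13 times that of small-subunit members in uncultured cells, 1.09 to 1.16 times with anti-CD40 at 6 h and 1.17 to 1.23 times with IL-21 added at 6 h. At 24 h it was 1.05 to 1.09 times with anti-CD40, 1.11 to 1.2 times with IL-21 and 1.11 to 1.14 times with both cytokines. The IL-21 libraries lay above those of anti-CD40 alone at both times. With anti-CD40 plus IL-4 the ratio was 1.10 to 1.19 at 6 h and 0.984 to 1.13 at 24 h, overlapping that of both cytokines (1.14 to 1.23 at 6 h) at both times. The overlap at 24 h came from replicate 1 of anti-CD40 plus IL-4 (1.13), of low mitochondrial share. Its group mates, at 1.06 and 0.984, lay below both cytokines. Naive replicate 1 was likewise at 1.13, while its group mates, at 1.04 and 1.00, lay below the anti-CD40 libraries of 6 h.

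Genes around the ribosome were set beside the members, on lists chosen with earlier results of these data known. At 6 h of anti-CD40, 15 of 20 ribosome biogenesis genes (factors of ribosomal RNA transcription and processing such as Ncl, Fbl and Nop56) were higher and 0 lower, with a median change of 1.45, and 13 of 15 genes of ribosomal protein import and subunit assembly were higher with a median of 1.2. Of 78 mitochondrial ribosomal protein genes, whose products build the separate ribosome of mitochondria, 51 were higher and 0 lower with a median of 0.82. The cytosolic members had a median of 0.02 there, with 10 of 82 higher. Of 20 translation factors and other TOP messenger RNAs, 3 were higher and 1 lower with a median of 0.10. After rescaling, the biogenesis count stayed at 15 of 20 (median 1.30) and the mitochondrial count became 45 higher and 1 lower (median 0.68).

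With IL-21 and anti-CD40 at 24 h, 10 of 20 biogenesis genes were higher and 0 lower (median 0.62) and 33 of 78 mitochondrial ribosomal protein genes were higher and 1 lower (median 0.48), while 22 of the 82 members were lower. After rescaling these counts were 7 of 20 biogenesis genes higher (median 0.36) and 19 of 78 mitochondrial ribosomal genes higher and 1 lower (median 0.20). With IL-4 present, 3 biogenesis genes were higher and 4 lower (median 0.19, beside 0.38 over all genes), and after rescaling 0 were higher and 8 lower (median -0.32). There 4 mitochondrial ribosomal genes were higher and 1 lower (median 0.09), and after rescaling 2 were higher and 33 lower (median -0.48). IL-4 with anti-CD40 at 24 h left 8 of 20 biogenesis genes higher (median 0.57) and 33 of 78 mitochondrial ribosomal genes higher and 1 lower (median 0.39), or 13 and 60 higher with 0 lower after rescaling. No test of the difference between the lists was made.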

How the data were processed

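The deposited table lists TPM (transcripts per 1000000) for each gene and library, made by the authors from polyadenylated RNA; per the submitters' processing notes Salmon 1.9.0 and builds GRCm38 and mm10 were used, with no role or order given, and other settings are not given in the sources used here. TPM keeps no read number, so depth is unknown and no counting interval was computed.

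Gene identifiers were named with GENCODE vM21 (35301 of 35604 matched). Members, lists and comparisons were chosen with earlier results of these data known. Genes of 1 TPM or more in 3 or more of 27 libraries were fitted as log2(TPM + 1) with limma 3.58.1 in R 4.3.3 (1 mean per group, trended prior variance, 18 residual degrees of freedom), and p-values were adjusted over 12147 genes by Benjamini-Hochberg with calls below 0.05. Fold changes on this scale understate low genes. The fit was repeated on (TPM + 1) divided by the summed member TPM. Shares and ratios of sums were described with Python 3.11.15 and not tested. On simulated data for IL-21 with anti-CD40 at 24 h over 11354 genes, 61% of changes of 1 and 96% of changes of 2 on the log2 scale were recovered (58% and 96% on the relative scale). The changes were placed only in non-member genes of higher level, with independent noise and no shift shared within a library. The rates therefore do not apply to low genes or to the members.

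Same-numbered libraries deviated from their group means together in 3 comparisons at 6 h, with correlations over genes of 0.186 to 0.335 (IL-21 with anti-CD40), 0.183 to 0.377 (IL-21 with anti-CD40 plus IL-4) and 0.107 to 0.382 (IL-4 with anti-CD40), so replicate numbers were taken as pairing them; the labels do not say what a number marks. Named were a panel by role, paralogs, the 6 highest members, and up to 3 members each way per comparison on the relative scale whose higher group averaged 5 TPM or more and whose libraries did not overlap; Rps15, Rpl37a, Rpl9 and Rps27rt were named for their level after their values were seen. Some items are not reported here. Alternatives were another pseudocount (0.1), no filter or 5 TPM, no variance trend, the replicate block, rescaling by the median of ratios and the members' median as reference. Each library was also left out in turn, and so was the pair of low mitochondrial share, which was chosen after seeing the data.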

Additional observations from a re-analysis of the deposited data

Results flagged for a closer look

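Rpl27 was singled out because the effect of IL-21 on it at 24 h differed between cells with and without IL-4. It was the 1 member of 82 called for this difference, beside 5.8% of all genes. The log2 change with IL-21 was 1.01 ± 0.16 without IL-4 and 0.03 ± 0.16 with it, and the difference between them was -0.98 ± 0.23 (limma, adjusted p = 0.0125 over 12147 genes, n = 3 libraries per group). The 3 libraries with anti-CD40 alone, at 83.0 to 94.9 TPM, lay below the 9 with a cytokine at 24 h, at 158 to 252 TPM. Relative to the summed member TPM the same difference was not called (-1.08 ± 0.33, adjusted p = 0.0836). On neither scale was it refitted under the alternatives or with a library left out. The value of 252 TPM belongs to replicate 1 of anti-CD40 plus IL-4, of low mitochondrial share. Rpl27 is among the 22 members that lay above both group mates in each library of that pair.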

How the results depend on the processing

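Counts are of members called in either direction, by limma. Leaving out each library in turn gave 9 to 16 calls for anti-CD40 at 6 h against uncultured cells, 9 to 14 at 24 h, 0 to 1 for IL-21 without IL-4 at 6 h, 6 to 35 at 24 h, 1 to 51 for IL-21 on top of IL-4 at 24 h, 4 to 28 for IL-4 at 24 h and 10 to 26 for 24 h against 6 h with IL-21. Relative to the members' sum the ranges were 11 to 21 for anti-CD40 at 24 h, 0 to 2 and 7 to 23 for IL-21 at 6 h and 24 h, 0 to 32 with IL-4 present at 24 h, 6 to 30 for IL-4 at 24 h, 5 to 7 for anti-CD40 at 24 h against 6 h and 3 to 11 for that interval with IL-21. Without the pair of libraries of low mitochondrial share the counts rose to 26 for anti-CD40 at 24 h. They rose to 6 and 40 for IL-21 at 6 h and 24 h, and to 1 and 54 with IL-4 present. They also rose to 34 for IL-4 at 24 h, 20 for 24 h against 6 h and 29 for that interval with IL-21. On the relative scale they rose to 7 and 32 for IL-21, 34 with IL-4 present at 24 h, 35 for IL-4 at 24 h, 20 for 24 h against 6 h and 16 with IL-21. For anti-CD40 at 6 h against uncultured cells, 14 members were then higher and 8 lower. On the relative scale these were 17 and 8 at 6 h, and 22 and 7 at 24 h. The shares of all genes called were not recorded for the settings of this paragraph.

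Rescaling by the median of ratios gave 0 calls for IL-21 at 6 h, 15 at 24 h, 41 with IL-4 present at 24 h, 13 for 24 h against 6 h and 33 with IL-21. With the replicate block, in these comparisons where the samples were or may be paired, 4 members were called for IL-21 at 6 h and 1 with IL-4 present, 15 for IL-21 with IL-4 at 24 h and 12 for 24 h against 6 h; relative counts were 5, 12 for IL-21 with IL-4 at 24 h and 16. In 23 of 27 libraries the deviations correlated best, on average, with the libraries of the same number in other groups. This count includes libraries outside the 6 h groups, and the main fits took no account of the number at any time. For IL-21 at 6 h no filter gave 2 and no variance trend 0, and a filter at 5 TPM gave 11 for IL-21 with IL-4 at 24 h. On the relative scale no filter gave 13 for anti-CD40 at 24 h, no variance trend gave 1 for IL-21 at 6 h, 5 for IL-4 at 24 h and 2 for 24 h against 6 h with IL-21, and the members' median as reference gave 1 and 6 for the first and last of these. The causes were not tested.

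With mitochondrial and pseudogene transcripts left out of the total, the share difference was -3.55 points for anti-CD40 at 6 h, -3.64 at 24 h, -9.50 for IL-21 at 24 h, -8.40 with IL-4 present and -6.30 for 24 h against 6 h with IL-21. With nuclear protein-coding genes as the total these were -4.01, -3.74, -10.3, -8.46 and -6.04, and -3.98 for IL-21 at 6 h. No share difference outside its spread changed sign. Of 135 calls of named members, 56 were kept under every alternative and 0 reversed. Depth cannot be judged from TPM.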
